A study of Mus musculus with 2 samples.

Results

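Foxo factors and the PI3K-Akt-Sgk1 axis that holds them in check were examined as 9 genes, taken by name from the deposited count table: Foxo1, Foxo3, Foxo4, Akt1, Akt2, Sgk1, Pik3ip1, Pik3cd and Pik3r1. All 9 were found once each among 22036 named genes, and all 9 had a mean of at least 1 CPM (the count scaled to library size), as did 10597 genes in all. The series holds 2 mRNA libraries from CD4 T cells isolated from the spleens and lymph nodes of wild-type animals, both activated on plate-bound antibodies to CD3 (10 μg/mL) and CD28 (5 μg/mL), with antibodies to IFNγ and IL-4 at 10 mg/mL as the labels give it, and both lysed after 24 h. The pTh17 library, labelled pathogenic Th17, came from cells given Activin-A at 20 ng/mL with IL-6 at 20 ng/mL. The npTh17 library, labelled non-pathogenic Th17, came from cells given rhTGFβ1 at 2 ng/mL with IL-6 at 20 ng/mL. The labels give no number of mice and no age, and they state no difference other than the cytokine mix, so the names pathogenic and non-pathogenic stand here for culture conditions. With 1 library per condition, no difference below has a replicate check, no test between conditions was made, and each range beside a fold is a 95% counting interval. The libraries hold 30877656 and 33470161 counts on named genes.

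PI3K makes a membrane lipid on which the kinase PDK1 activates Akt, while mTORC2 activates both Akt and the related kinase Sgk1. Akt and Sgk1 phosphorylate Foxo proteins, which then bind 14-3-3 proteins and leave the nucleus, so in T cells strong PI3K signals silence Foxo target genes by way of the protein, without any need for a change in Foxo mRNA. Foxo1 keeps naive T cells in lymphoid circulation through genes such as Klf2 and Ccr7, and in Th17 cells Sgk1 is known to relieve repression of Il23r by Foxo1. mRNA levels, which were measured here, report neither phosphorylation nor location of these proteins.

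Sgk1 was the member that differed most between the libraries. It had 1008 counts (32.6 CPM) in the pTh17 library and 2509 counts (75.1 CPM) in the npTh17 library, a 2.30-fold difference (2.14 to 2.48). Foxo1 was also lower in the pTh17 library, at 213 CPM against 302 CPM, while Foxo3 was higher there, at 56.8 CPM against 44.9 CPM. Akt1, the most abundant kinase of the set per transcript length, was level at 219 CPM in both. Of the 9 members, 4 had a ratio above 1 (higher in the pTh17 library) and 5 below 1, and the median log2 ratio of −0.0041 was close to that of all measured genes, −0.0045. Sgk1 alone passed 2-fold. Over all measured genes, 4.20% passed 2-fold in either direction with 2.25% on the pTh17 side and 1.95% on the npTh17 side.

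**Figure D1:**
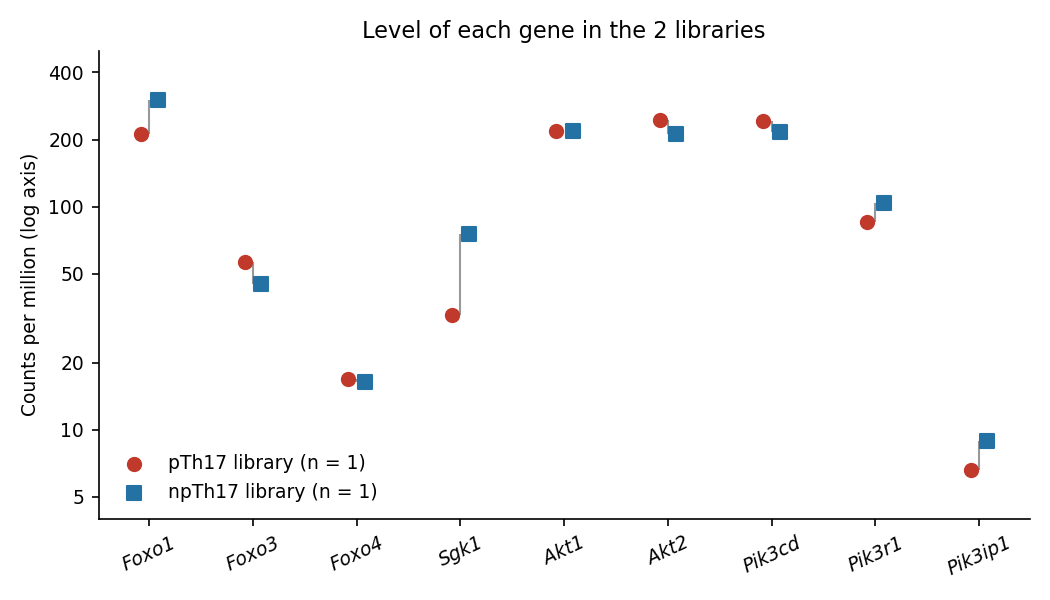
CPM (log axis) of the 9 genes in the pTh17 library (red circles) and the npTh17 library (blue squares), 1 library each. The widest gap is that of Sgk1, at 32.6 against 75.1 CPM, and the symbols of Akt1 and Foxo4 nearly coincide.

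Sgk1 encodes serum- and glucocorticoid-regulated kinase 1 (ENSMUSG00000019970, chromosome 10, 21882184 to 21999903, plus strand, GRCm38, the assembly also named mm10). Its log2 ratio of −1.20 (−1.31 to −1.10) was lower than that of all but 131 of the 10597 measured genes. FPKM (the authors' level per transcript length and sequencing depth) gave 11.6 against 26.9, and the same log2 ratio of −1.20. The paralog Sgk3 was 1.23-fold higher in the npTh17 library (1.12 to 1.35), and Sgk2 had 2 counts in the pTh17 library and 0 in the npTh17 library, where a count of 0 allows up to 0.0898 CPM. Sgk1 made up 65.9% of the FPKM of the 3 Sgk genes in the pTh17 library and 79.2% in the npTh17 library.

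Sgk1 has 6 start sites in the RefSeq table for GRCm38.p6, and the counts do not tell which of them was used. The 250 bases before a start site are shown for 2 of them, because this gene carries the largest difference of the set. The first is the only Sgk1 window that holds the SMAD half-site CAGAC (read as GTCTG on the other strand), the short element bound by the factors that both ligands activate, and its 3 matches are in capitals, the first pair sharing a base. The second window is the richest in CpG of the 6, with 22 CpG and 70.4% GC, and holds no match. Both run 5′ to 3′ on the plus strand of chromosome 10, at chr10:21978422-21978671 and chr10:21994416-21994665.
Sgk1 start with half-sites: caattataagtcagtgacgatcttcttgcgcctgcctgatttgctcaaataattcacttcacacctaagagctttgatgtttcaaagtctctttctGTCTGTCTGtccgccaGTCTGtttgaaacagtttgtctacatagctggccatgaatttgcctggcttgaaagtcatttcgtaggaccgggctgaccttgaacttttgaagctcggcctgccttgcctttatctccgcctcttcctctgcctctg
Sgk1 CpG-rich start: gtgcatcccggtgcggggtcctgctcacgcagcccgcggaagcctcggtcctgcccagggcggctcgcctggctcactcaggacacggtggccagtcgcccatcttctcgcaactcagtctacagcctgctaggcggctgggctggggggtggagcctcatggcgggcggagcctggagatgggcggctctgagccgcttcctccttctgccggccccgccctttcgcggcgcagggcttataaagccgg
The half-site was present in 42.2% of all 32851 windows of this length in the table, so its presence in 1 of 6 Sgk1 windows is a description of the letters only. Of the 20 windows of members, 6 (30%) held it, among them 1 window of Akt1 with 2 matches. The full SMAD palindrome GTCTAGAC, present in 0.167% of all windows, was in none of the 20 windows of the 8 members that the table holds.

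The Foxo genes encode forkhead transcription factors with a shared DNA-binding domain, and the 3 members went separate ways. Foxo1 (ENSMUSG00000044167, chromosome 3, 52268336 to 52353221, plus strand) had a log2 ratio of −0.50 (−0.55 to −0.46), with 827 measured genes lower, or 7.80%. Its level is among the highest of the members, above that of 93.0% of measured genes in mean CPM. Foxo3 (ENSMUSG00000048756, chromosome 10, 42181841 to 42276755, minus strand), which encodes a factor known for roles in cell death and cell-cycle arrest, had 1756 counts in the pTh17 and 1501 in the npTh17 library and was 1.26-fold higher in the pTh17 library (1.18 to 1.36). Foxo4 (ENSMUSG00000042903, chromosome X, 101254528 to 101260873, plus strand) had 521 and 546 counts, and its log2 ratio of 0.044 (−0.13 to 0.22) did not differ from 0 within counting error. Foxo6 had 2 counts in each library and lay below the filter.

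Per transcript length, Foxo1 was the leading Foxo transcript in both libraries, at 21.5 FPKM in the pTh17 and 30.6 FPKM in the npTh17 library. Foxo3 followed at 7.44 and 5.81 FPKM, and Foxo4 at 4.67 and 4.54 FPKM. The order of the 3 was thus the same in both, but the gap from Foxo1 to Foxo3 was 2.89 times in the pTh17 library and 5.27 times in the npTh17 library. Foxo1 accounted for 64.0% of the FPKM of the 4 Foxo genes in the pTh17 library and for 74.7% in the npTh17 library. The summed level was 33.6 FPKM against 41.0 FPKM, so the npTh17 library had more Foxo mRNA in total and a larger part of it from Foxo1.

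The sequence before the start of Foxo1, the factor in the title of the series, is given because Foxo1 itself was lower in the pTh17 library, and was searched for the forkhead core GTAAACA, which reads TGTTTAC on the other strand. It lies at chr3:52268087-52268335 on the plus strand of GRCm38.p6, up to the first annotated exon.
Foxo1 promoter: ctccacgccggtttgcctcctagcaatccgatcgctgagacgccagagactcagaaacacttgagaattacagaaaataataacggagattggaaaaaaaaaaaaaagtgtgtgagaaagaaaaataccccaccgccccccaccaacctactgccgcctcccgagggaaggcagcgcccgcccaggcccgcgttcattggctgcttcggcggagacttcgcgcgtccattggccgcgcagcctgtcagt
Neither the forkhead core nor the SMAD half-site is in this window, so it has no capitals. Over all windows of the table, 3.17% held the forkhead core. Among the 20 windows of the members, 1 did, that of the outer of the 2 Akt1 start sites, at chr12:112674885-112675134 on the minus strand, shown with the match in capitals.
Akt1 outer start: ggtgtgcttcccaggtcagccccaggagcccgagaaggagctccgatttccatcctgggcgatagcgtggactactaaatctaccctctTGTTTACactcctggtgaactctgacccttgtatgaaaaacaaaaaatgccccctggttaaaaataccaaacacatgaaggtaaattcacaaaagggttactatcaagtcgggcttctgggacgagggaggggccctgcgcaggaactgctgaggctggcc
Akt1 was the member closest to a ratio of 1.

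Akt1 and Akt2 encode the serine/threonine kinases, also called protein kinase B, that phosphorylate Foxo factors and many metabolic targets. Akt1 (ENSMUSG00000001729, chromosome 12, 112653821 to 112674884, minus strand) had 6764 and 7331 counts and a log2 ratio of −0.0041 (−0.052 to 0.044), an interval that leaves room for a difference of at most 1.04-fold in either direction. Akt2 (ENSMUSG00000004056, chromosome 7, 27591552 to 27640826, plus strand) had 7605 counts in the pTh17 and 7055 in the npTh17 library and was 1.16-fold higher in the pTh17 library by counts (1.13 to 1.20). By FPKM, however, Akt2 was level, at 48.0 and 47.5, a log2 ratio of 0.016, so its direction rests on the count table. Akt1 and Akt2 together came to 119.5 FPKM in the pTh17 and 119.8 FPKM in the npTh17 library, with Akt1 at 59.8% and 60.3% of the sum.

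The kinases that act on Foxo factors stood in different proportions in the 2 libraries. Akt1 exceeded Sgk1 by 6.14 times in FPKM in the pTh17 library and by 2.69 times in the npTh17 library. Foxo1 mRNA exceeded Sgk1 mRNA by 1.85 times and by 1.14 times, in the same order. Both transcripts were lower in the pTh17 library, and Sgk1 was the lower of the pair by ratio, with intervals that do not overlap.

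**Figure D2:**
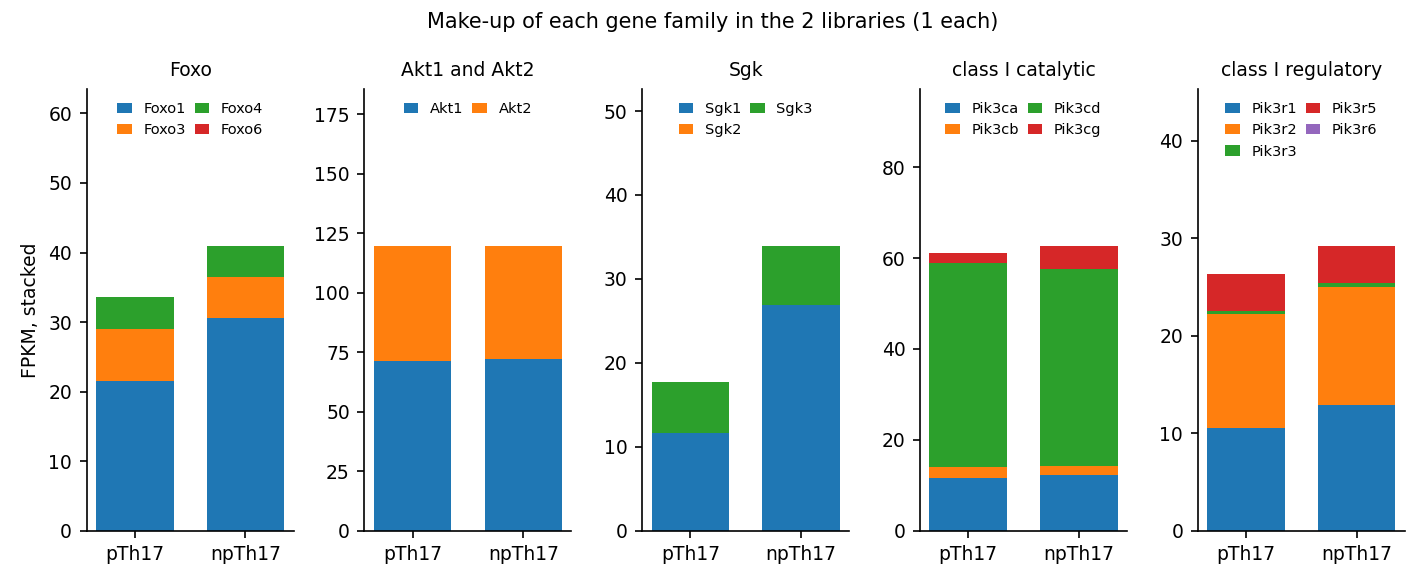
Stacked FPKM of the Foxo genes, of Akt1 and Akt2, and of the Sgk, class I PI3K catalytic and class I PI3K regulatory genes in the pTh17 and npTh17 library, 1 each, with a separate axis from 0 for each panel. The Sgk bar is 17.7 against 34.0 FPKM and the Foxo bar 33.6 against 41.0 FPKM, while the bars of Akt1 and Akt2 are 119.5 and 119.8 FPKM.

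Pik3cd and Pik3r1 encode the p110δ catalytic subunit, the main PI3K of lymphocytes, and the regulatory subunit p85α that stabilises and restrains it. Pik3cd (ENSMUSG00000039936, chromosome 4, 149649168 to 149702571, minus strand) had 7519 counts (243 CPM) in the pTh17 and 7221 counts (216 CPM) in the npTh17 library, and was 1.13-fold higher in the pTh17 library (1.09 to 1.16). Its FPKM values of 45.0 and 43.2 gave a smaller log2 ratio, 0.056 in place of 0.17. Pik3r1 (ENSMUSG00000041417, chromosome 13, 101680563 to 101768217, minus strand) went the other way, with 2643 counts (85.5 CPM) against 3465 counts (104 CPM), and was 1.21-fold higher in the npTh17 library (1.15 to 1.28). The Pik3cd transcript exceeded that of Pik3r1 by 4.26 times in FPKM in the pTh17 library and by 3.36 times in the npTh17 library.

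Among the other class I subunits, Pik3cg was the one past 2-fold. This gene encodes p110γ, the PI3K that acts downstream of G protein-coupled receptors, and it had 452 counts (14.6 CPM) in the pTh17 and 1052 counts (31.5 CPM) in the npTh17 library. It was 2.15-fold higher in the npTh17 library (1.93 to 2.41), close to the size seen for Sgk1. Pik3r3, a minor regulatory subunit gene, was 1.49-fold higher there (1.07 to 2.14) on 56 and 91 counts. Pik3ca had a log2 ratio of −0.071 (−0.14 to −0.0064) and Pik3cb one of 0.18 (0.0013 to 0.35). With counts halved, the intervals of Pik3r3, Pik3ca and Pik3cb all took in a ratio of 1. Of the 8 measured subunit genes, 3 had a ratio above 1 and 5 below, with a median log2 ratio of −0.056. p110δ was the leading catalytic transcript in both libraries, at 73.4% and 68.9% of the FPKM of the 4 catalytic genes, while Pik3cg supplied 3.60% and 8.32%.

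Pik3ip1 encodes a membrane protein that binds and inhibits PI3K in T cells. Pik3ip1 (ENSMUSG00000034614, chromosome 11, 3330401 to 3342971, plus strand) was the scarcest member, with 205 counts (6.63 CPM) in the pTh17 and 299 counts (8.95 CPM) in the npTh17 library. It was 1.35-fold higher in the npTh17 library, with a wide range of 1.13 to 1.62. Other brakes on the pathway went in both directions. Inpp4b, a phosphatase that removes a PI3K lipid product, was 1.43-fold higher in the npTh17 library (1.39 to 1.48), at 317 CPM against 221 CPM. Its paralog Inpp4a was 1.45-fold higher in the pTh17 library (1.27 to 1.66), at 17.2 against 11.8 CPM. Inpp5d, encoding the lipid phosphatase SHIP1, was 1.21-fold higher in the npTh17 library (1.15 to 1.28). By FPKM the log2 ratio of Inpp5d was −0.15 in place of −0.27, and that of Inpp4b −0.57 in place of −0.52. Both FPKM values lie outside the counting interval. Phlpp2, encoding a phosphatase that acts on Akt, was 1.15-fold higher in the pTh17 library (1.05 to 1.25), on 992 and 936 counts. Of the 7 antagonist genes listed, 4 had a ratio below 1 and none passed 2-fold. The median log2 ratio was −0.10, and 0.030 with the member Pik3ip1 left out.

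**Figure D3:**
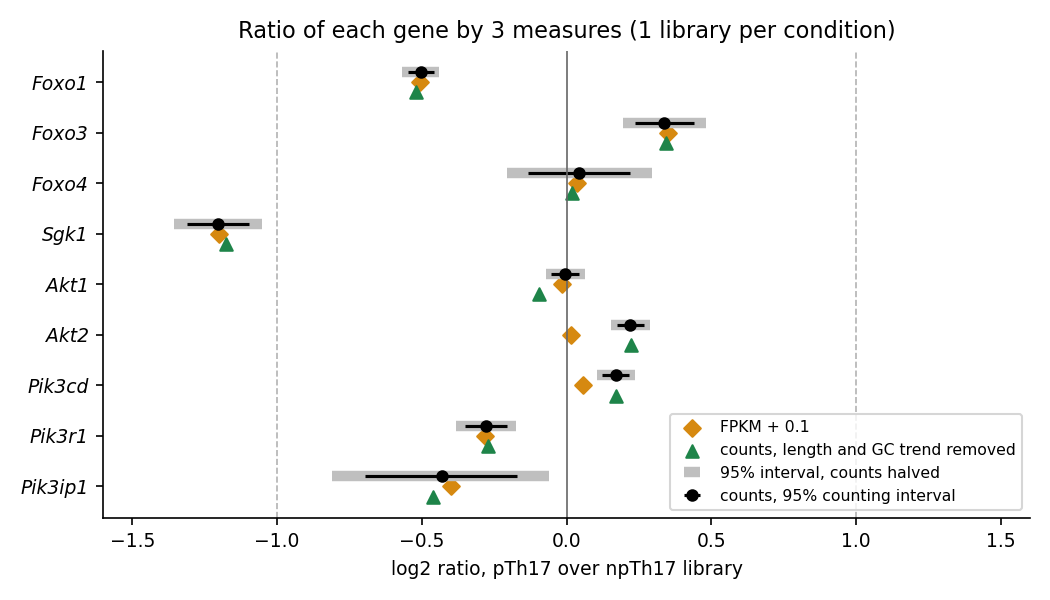
log2 ratio of the pTh17 over the npTh17 library for each gene, by counts with the 95% counting interval (black; grey, the interval from halved counts), by FPKM with 0.1 added (orange) and by counts after removal of a trend on transcript length and GC content (green). Sgk1 lies past the dashed line of 2-fold by each measure, and Akt2 and Pik3cd move toward 0 by FPKM.

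Counting intervals were clear of a ratio of 1 for 7 of the 9 members, 3 higher in the pTh17 library (Foxo3, Akt2 and Pik3cd) and 4 higher in the npTh17 library (Foxo1, Sgk1, Pik3ip1 and Pik3r1). At these depths 66.9% of all measured genes were clear of 1, 33.0% of them all on the pTh17 side and 34.0% on the npTh17 side, so an interval clear of 1 is the common case and says only that counting error is smaller than the difference. Size separates the members more plainly. At 1.5-fold, Sgk1 was again the only member, against 13.0% of all measured genes. Distances from 1 as large as that of Foxo1 were exceeded by 17.1% of measured genes, that of Pik3ip1 by 21.6%, that of Foxo3 by 30.0% and that of Pik3r1 by 37.8%, whereas that of Sgk1 was exceeded by 2.80%.

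**Figure D4:**
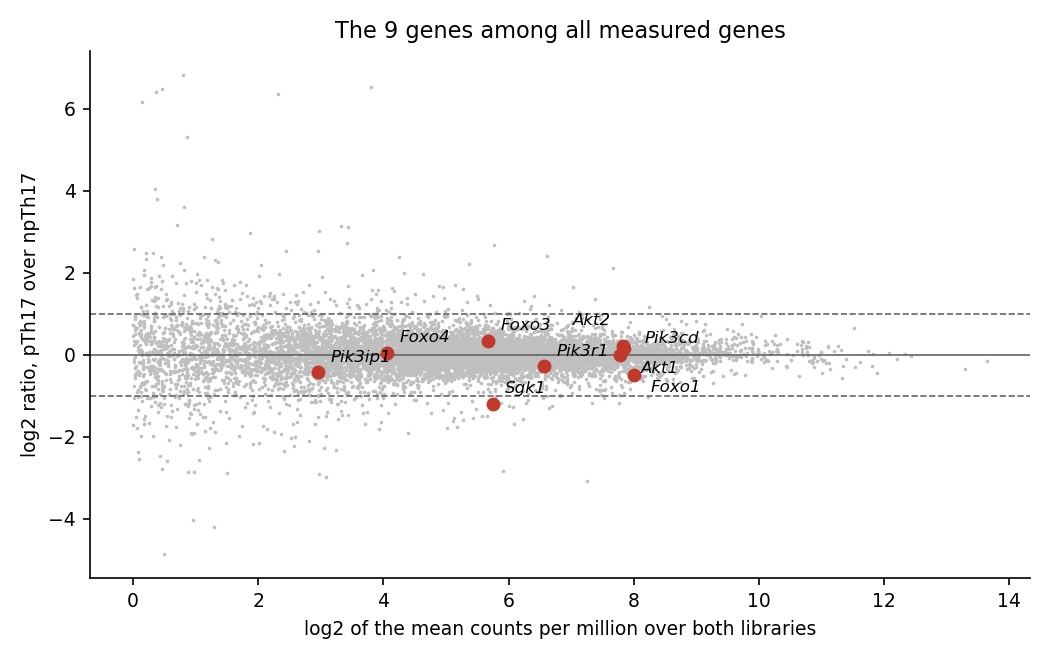
log2 ratio of the pTh17 over the npTh17 library against the log2 of the mean CPM for the 10597 measured genes (grey), with the 9 genes in red and dashed lines at 2-fold. Sgk1 lies below the lower line, and the other 8 lie between the lines.

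Upstream of PI3K, 6 of 9 measured genes of receptors, adaptors and the ubiquitin ligases Cbl and Cblb had a ratio above 1. The share over all measured genes was 49.4%, and the median log2 ratio of the list was 0.18. Cbl and Cblb are among the 6, so the count is not one of receptors and adaptors alone. Of the 9, intervals were clear of 1 for 5 on the pTh17 side, beside 33.0% of all measured genes. On the npTh17 side the interval of 1 was clear, beside 34.0%. Icos, a costimulatory receptor that recruits PI3K, was 1.46-fold higher in the pTh17 library (1.40 to 1.53), at 146 against 100 CPM. The ubiquitin ligase genes Cbl and Cblb were 1.24-fold (1.20 to 1.28) and 1.23-fold (1.16 to 1.30) higher, and Insr, the insulin receptor gene, 1.28-fold (1.17 to 1.40). On the npTh17 side stood Igf1r, the receptor gene for insulin-like growth factor, named after its values were seen, at 1.20-fold (1.15 to 1.25). None of these passed 2-fold. Among the kinases and their activators, Pdpk1, encoding PDK1, was 1.10-fold higher in the pTh17 library (1.05 to 1.15), and Rictor, a core subunit gene of mTORC2, had a log2 ratio of −0.053 (−0.13 to 0.023). Of further mTORC2 subunit genes, Mapkap1 was 1.14-fold higher in the npTh17 library (1.07 to 1.22) and Mlst8, shared with mTORC1, was 1.15-fold higher in the pTh17 library (1.06 to 1.25). Of 10 measured kinases and activators, 5 had a ratio above 1 and 5 below, with a median log2 ratio of 0.029.

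Proteins that bind or modify Foxo factors had 8 of 17 genes above 1, 9 below and a median log2 ratio of −0.031. Ywhag, one of the 14-3-3 genes, was the farthest from 1, at 320 CPM in the pTh17 and 225 CPM in the npTh17 library, or 1.42-fold higher in the pTh17 library (1.38 to 1.46). The other 14-3-3 genes listed, named after their values were seen, lay nearer to 1. Their log2 ratios were −0.031 for Ywhaz, 0.047 for Ywhae, 0.039 for Ywhah, −0.032 for Ywhab, 0.095 for Ywhaq and 0.30 for Sfn. By FPKM the log2 ratio of Ywhaz was 0.012, of the other sign and above its counting interval of −0.057 to −0.0054. Ywhaz and Ywhae were more abundant than Ywhag, at means of 757 and 586 CPM. Prmt1, an arginine methyltransferase gene, was 1.18-fold higher in the pTh17 library (1.15 to 1.21). By FPKM its log2 ratio was 0.15 in place of 0.24, below the counting interval. On the npTh17 side, Crebbp, an acetyltransferase gene, was 1.19-fold higher (1.13 to 1.26). Stk4, encoding the kinase MST1, was 1.17-fold higher there (1.13 to 1.21). Of the other Akt and Sgk substrates, 5 of 10 genes were above 1. Tbc1d4, which encodes a regulator of glucose transporter traffic, was 1.48-fold higher in the npTh17 library (1.43 to 1.52), and Bad, a pro-death Bcl2 family gene, 1.54-fold higher in the pTh17 library (1.31 to 1.80). Gsk3b and Mdm2 stayed nearer to 1, at log2 ratios of 0.23 (0.15 to 0.32) and −0.16 (−0.24 to −0.090). By FPKM the log2 ratio of Gsk3b was 0.323, past its upper bound of 0.319.

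Genes that Foxo factors are known to activate, a list not limited to targets in T cells, were mostly lower in the pTh17 library. Of 23 measured genes, 17 had a ratio below 1, beside 50.6% of all measured genes, and 15 had an interval clear of 1 on that side, beside 34.0%. With counts halved, the intervals of Cdkn1b, Txnip and Gadd45a, named after their values were seen, took in a ratio of 1. The median log2 ratio of the list was −0.18, and −0.17 with Pik3ip1 left out, since it is a member. These genes were listed with earlier results of these data known, and many of them also mark resting T cells, so the counts describe the list and are no separate line of evidence on Foxo1. At least 1.5-fold higher in the npTh17 library were 5 of the 23, beside 5.76% of all measured genes, and 1, Ccng2, passed 2-fold.

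Among the genes named from this list, Ccr7, the chemokine receptor gene for entry into lymph nodes, had 8490 counts (275 CPM) in the pTh17 and 13372 counts (400.1 CPM) in the npTh17 library, a log2 ratio of −0.54 (−0.58 to −0.50). S1pr1, the egress receptor gene, was 1.26-fold higher in the npTh17 library (1.16 to 1.37). Klf2, the transcription factor gene that sustains it, had 430 and 879 counts. The cell-cycle brake Ccng2 stood at 14.1 CPM against 30.7 CPM, and the repressor Bcl6 at 10.2 CPM against 18.9 CPM. Against the list stood 5 genes with intervals clear of 1 on the other side, named after their values were seen. Il7r, the IL-7 receptor gene and a classical Foxo1 target, had 325 counts in the pTh17 and 239 in the npTh17 library, and a log2 ratio of 0.55 (0.31 to 0.80). Ctla4 stood at 0.42, Cited2 at 0.41, Sesn2 at 0.41 and Trib1 at 0.15. With counts halved, the interval of Trib1, −0.047 to 0.35 in log2 ratio, takes in a ratio of 1.

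**Figure D5:**
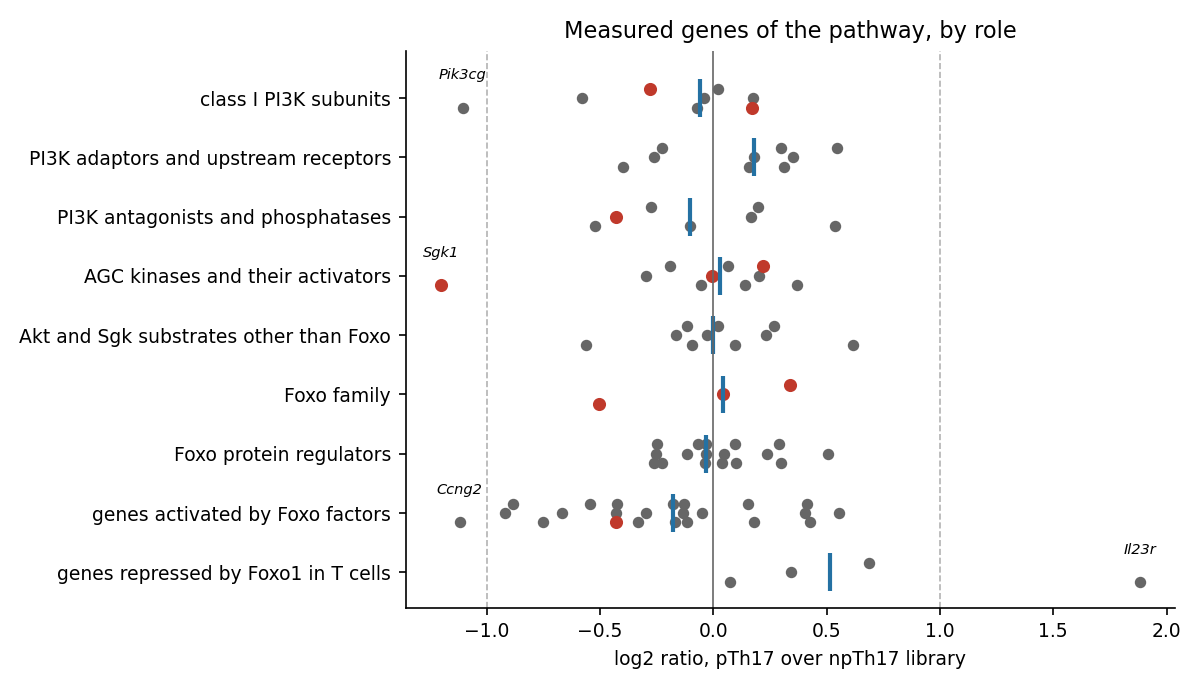
log2 ratio of the pTh17 over the npTh17 library for each measured gene of 9 lists by role (grey; members in red), with the list median as a blue bar and dashed lines at 2-fold. Sgk1, Pik3cg and Ccng2 lie past 2-fold on the npTh17 side and Il23r on the pTh17 side, and some genes stand in more than 1 list.

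Genes that Foxo1 is known to repress in T cells, a short list, had ratios above 1 in all 4 measured cases, beside 49.4% of all measured genes, with a median log2 ratio of 0.51. This list too was drawn up with earlier results of these data known. Its count describes the list and is no separate line of evidence on Foxo1. Il23r, at 12.8 CPM in the pTh17 and 3.44 CPM in the npTh17 library, was the one past 2-fold. Tbx21 was at 12.6 and 7.81 CPM, Il17a at 7.86 and 6.19 CPM and Myc at 564 and 535 CPM. The ratio of Myc was 1.05-fold, and the interval of Il17a from halved counts, −0.047 to 0.74 in log2 ratio, takes in 0. The library with less Sgk1 and less Foxo1 mRNA was the library with more Il23r mRNA. Whether these differences are linked was not tested. The remaining pair, Gzmb and Ifng, lay below the filter, at 17 and 4 counts and at no count in either library, where 0 counts allow up to 0.097 CPM in the pTh17 library.

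Markers of the cells themselves were those of CD4 T cells in both libraries. Cd4 had 6886 and 7683 counts, and 6 T cell markers summed to 2103 CPM in the pTh17 and 2104 CPM in the npTh17 library. Each of the other 7 marker lists (CD8 T cell, B cell, myeloid, dendritic, NK, red blood cell, stromal and endothelial) summed to between 0.18 and 8.86 CPM. Pax5, Csf1r, Cd14 and Ncr1 were at 0 in both libraries. Other markers of these lists were present, with Pecam1 at 253 and 289 counts, Cd68 at 110 and 123 and Cd74 at 94 and 61. Scarcer ones were uneven, with Klrd1 at 47 counts in the pTh17 and 98 in the npTh17 library. In the same order, Itgam had 0 and 24 counts, Itgax 0 and 20, and Cd79b 11 and 0. Single T cell markers were less even than their sum, with Cd3e at 5169 counts against 8423. In bulk RNA, fewer cells that express a gene and less of its RNA per cell cannot be told apart.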

How the data were processed

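Raw counts and FPKM values, with 1 column for each library, come in separate tables that the authors deposited. Per the submitters' processing notes, mm10 was used as genome build. The aligner, counting program and annotation were not given in the sources used here. Of 23702 rows, 20 held no values, and 1646 features with no gene name (2.50% and 2.90% of counts) were left out of library sizes. Symbols turned into dates in 27 rows were restored through GENCODE M21, whose coordinates are printed. Library sizes were scaled with TMM factors (edgeR 4.0.16, R 4.3.3). Ratios are log2 CPM, pTh17 over npTh17, with a prior count of 1. Intervals are exact Clopper-Pearson intervals (95%, scipy 1.17.1) of the share of counts in the pTh17 library and cover counting error only, as do limits from a count of 0, set at 3 counts. Counts of 2 were 3.88 and 4.57 times as frequent as counts of 1 in the pTh17 and npTh17 library, so a fragment may have added 2 to a count, and intervals were repeated with counts halved. No test between conditions was made, as there is 1 library per condition. The calculations were tested on simulated data.

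The 9 genes and the lists around them were chosen with earlier results of these data known. The text names all 9, up to 4 further genes per list by the interval bound nearest to 1, any past 2-fold, and 11 fixed genes. Of the listed genes, 4 are not reported here and were left out of the lists. Promoter windows are the 250 bases before each start in RefSeq's GRCm38.p6 table, searched on both strands, and the table holds 8 of the 9 genes. Alternatives were DESeq2 1.42.0 size factors, other scalings, prior counts and filters, FPKM, and a length and GC trend removed by least squares.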

Additional observations from a re-analysis of the deposited data

How the results depend on the processing

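The log2 ratios of 7 members, those with an interval clear of 1, kept their sign under every alternative tried, though that of Akt2 was close to 0 by FPKM, and Sgk1 was the only member past 2-fold under each. Of the members' values under alternatives that can move them, 76 stayed inside the counting interval and 5 did not. These were Akt2 by FPKM, at 0.016 with either pseudocount in place of 0.22, Pik3cd by FPKM, at 0.056 with 0.1 added and 0.055 with 1 added in place of 0.17, and Akt1 at −0.096 with the length and GC trend removed in place of −0.0041, which also set the members' median at −0.096. With total counts and upper-quartile factors that median and Akt1 were above 0, at most 0.018. With counts halved, the same 7 intervals were clear of 1, beside 55.1% of all measured genes, and that of Pik3ip1 reached −0.060. The median of the list upstream of PI3K, Cbl and Cblb included, was 0.30 in place of 0.18 with a mean of at least 5 CPM. List medians near 0 changed sign, those of kinases and their activators (−0.019 to 0.063), of Foxo protein regulators (−0.033 to 0.012) and of Akt and Sgk substrates (−0.046 to 0.020). The 238 genes past 2-fold on the pTh17 side became 1192 with no filter, 96 at 5 CPM, 763 at 1.5-fold and 119 by the nearest interval bound, and the 207 of the npTh17 library became 1136, 101, 610 and 103. Sums with overlapping genes could not be made, as the annotated neighbours overlapping Foxo1, Akt1, Pik3ip1, Pik3cd and Pik3r1 have no row of their own in the table, and the labels name no strand-marking step. No paired analysis was possible because each condition has 1 library.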

Other observations

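Akt2 and Pik3cd were the members whose ratio depended on the deposited table. The log2 ratio of Akt2 was 0.20 higher by counts than by FPKM, a gap that 4.77% of measured genes matched or exceeded, and that of Pik3cd was 0.11 higher, matched or exceeded by 10.4%. For the other 7 members the difference between tables lay between −0.031 and 0.012. The annotation holds 14 transcripts for each of Akt2 and Pik3cd, but also 13 for Sgk1, whose gap was −0.0033. Whether transcript usage differed between the libraries was not tested.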
